A study of Mus musculus with 3 samples.

Results

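The epididymis of castrated mice given testosterone (Cas+T) was compared with that of mice that kept their testes (Sham), to describe what stayed apart after this treatment. These are 2 of the 3 libraries of the series, 1 for each group, and they were chosen by their treatment labels. All animals were male mice of the outbred strain ICR, of an age the labels do not give. In the Cas+T group, 5 mice lost both testes, kept their epididymides and, from 14 days after surgery, were injected under the skin with testosterone propionate, an ester that releases testosterone, at 5 mg/kg in corn oil on 10 days in a row. A castrated group that received corn oil in place of the hormone (Cas+CO, 5 mice) is shown beside them. The Sham group of 3 mice was operated on without removal of the testes, and no injection is recorded for it. The labels do not say whether 1 library stands for every mouse of a group, and there is no replicate, no SD and no p-value anywhere below: each ratio compares 2 libraries, not 2 conditions.

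Sperm leave the testis unable to swim forward or fertilise and mature while they pass along the epididymal duct, whose lining secretes proteins into the lumen around them. Most of this secretory programme depends on androgen from the blood. The initial segment, the stretch nearest the testis, also depends on factors that arrive in the testicular fluid itself, a route called lumicrine signalling: the testis protein NELL2 acts on the receptor ROS1, and the ERK kinase cascade below it drives the ETS transcription factors ETV4 and ETV5. Injected testosterone does not bring back the fluid. The labels give no androgen level, so hormone dose, timing of treatment and loss of the fluid cannot be told apart in these libraries.

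Expression was given as TPM, an abundance per gene length on a fixed total of 1000000, so the sequencing depth behind a value is unknown. Log2 ratios are Cas+T over Sham on the log2(TPM + 1) scale, for the 14631 of 23519 genes that reached 1 TPM in either library. The added 1 makes them understate the change of low genes. Genes at 1 TPM or more numbered 14032 in Cas+T, 15485 in Cas+CO and 13702 in Sham. The sperm-binding protein Crisp1 (32799 TPM in Cas+T, 44116 TPM in Sham) and the secreted peroxidase Gpx5 (15470 TPM in Cas+T, 17098 TPM in Sham), which define epididymal epithelium, were among the 10 most abundant genes of both libraries.

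Most of the transcriptome lay close to Sham after testosterone. Of the genes compared, 92.1% were within 2-fold, 756 (5.17%) stood 2-fold or more above Sham and 402 (2.75%) stood 2-fold or more below it in Cas+T. The median gene stood 0.30 above Sham on the log2 scale. When each library was scaled to the median of the 12679 genes at 1 TPM or more in all 3 libraries, Cas+T values went down by 0.35 and the median ratio was -0.01. The split then turned round, with 308 genes (2.11%) at least 2-fold higher in Cas+T and 583 (3.98%) lower by that much, so the share of higher genes among those apart was 65.3% as deposited and 34.6% after scaling. All 308 of those higher genes were also higher as deposited, and all 402 genes lower as deposited were also lower after scaling.

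**Figure D1:**
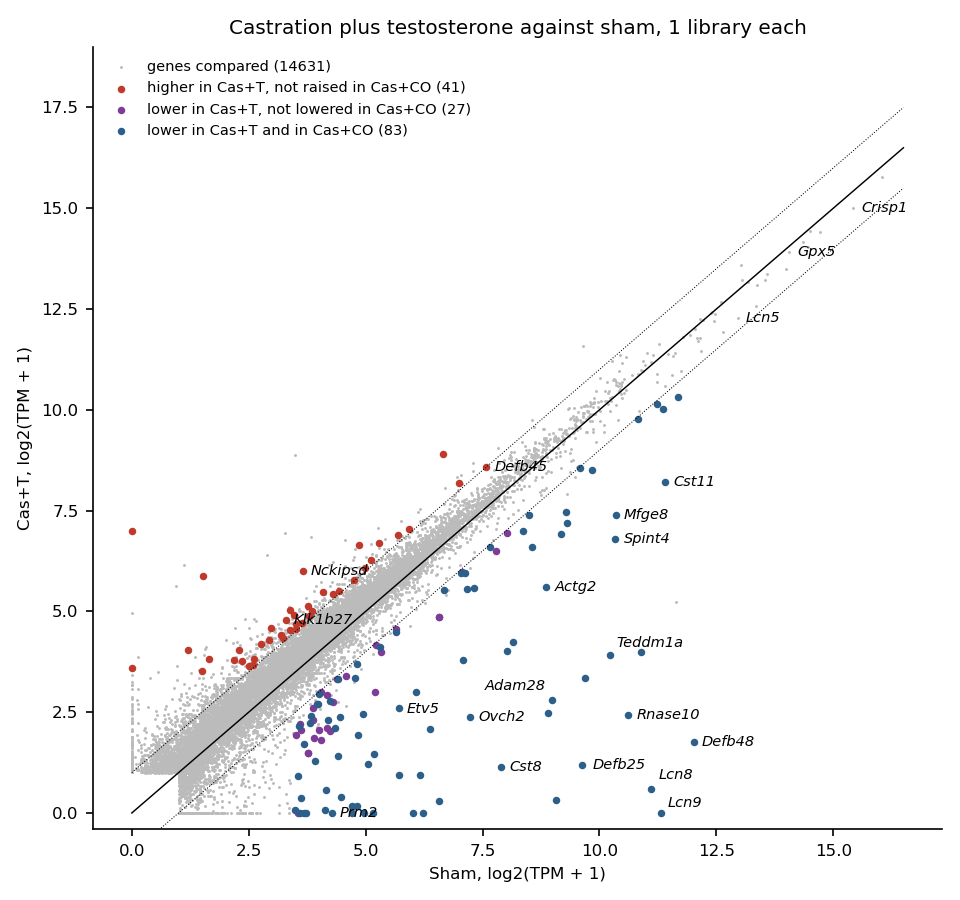
Log2(TPM + 1) of each of the 14631 genes compared, Cas+T on the vertical axis against Sham on the horizontal axis, with dotted lines at 2-fold. Colours mark 41 genes above Sham in Cas+T and not in Cas+CO, 27 below Sham in Cas+T and not in Cas+CO, and 83 below Sham in both castrated libraries, and the cloud of genes in the last colour reaches from the most abundant genes of Sham down to 0 in Cas+T.

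The genes far from the diagonal were not spread evenly over expression levels. Among the 111 genes with a mean of 1000 TPM or more, 8.11% were at least 2-fold lower in Cas+T (16.2% after scaling) and 0.901% higher. Among the 6564 genes between 10 and 100 TPM, 1.07% were lower and 3.61% higher (2.0% and 1.22% after scaling). The abundant genes that stayed low were mainly secretory products of the duct.

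Initial segment genes had the lowest median of the 45 gene lists as deposited. All 25 members were compared: 15 were at least 2-fold lower in Cas+T, 10 were within 2-fold and 0 were higher, with a median log2 ratio of -2.51 (17 lower and a median of -2.63 after scaling), beside 2.75% lower and a median of 0.30 over all genes. Their summed level was 7281 TPM in Cas+T, 2437 TPM in Cas+CO and 25711 TPM in Sham. In RNA from whole tissue, fewer initial segment cells and less RNA per cell cannot be told apart.

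The lowest members were listed at or near 0. Lcn9 (ENSMUSG00000023210; GRCm38 chromosome 2, 25823153 to 25825537), a lipocalin that carries small lipophilic molecules, was listed at 0 in Cas+T and in Cas+CO, against 2552 TPM in Sham. Lcn8 (ENSMUSG00000036449; chromosome 2, 25653120 to 25656217), another lipocalin, had 0.51 TPM in Cas+T, was listed at 0 in Cas+CO and had 2188 TPM in Sham, a log2 ratio of -10.50. The beta-defensin Defb48 (ENSMUSG00000075574; chromosome 14, 62977524 to 62984510), of a family of antimicrobial peptides that also coat sperm, had 2.37 TPM in Cas+T, was listed at 0 in Cas+CO and had 4135 TPM in Sham (-10.26). Lcn8 and Defb48 thus stood at 0.0233% and 0.0573% of their Sham levels in Cas+T.

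Other members in this group make enzymes and inhibitors of the lumen. Rnase10, a ribonuclease family member needed in mice for sperm to enter the oviduct, had 4.41 TPM in Cas+T, 0.48 TPM in Cas+CO and 1562 TPM in Sham (-8.17). Ovch2, an ovochymase protease made in the initial segment under NELL2 and ROS1 that acts on sperm surface ADAM3 in mice, had 4.23 TPM in Cas+T, 0.78 TPM in Cas+CO and 150 TPM in Sham (-4.85). Adam28, a membrane metalloprotease, had 5.94 TPM in Cas+T, 2.97 TPM in Cas+CO and 505 TPM in Sham (-6.19). For all 3 the level in Cas+T lay above that in Cas+CO and far below that in Sham. Spint4, a Kunitz-type protease inhibitor, kept more, with 110 TPM in Cas+T, 45.2 TPM in Cas+CO and 1290 TPM in Sham (-3.54).

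**Figure D2:**
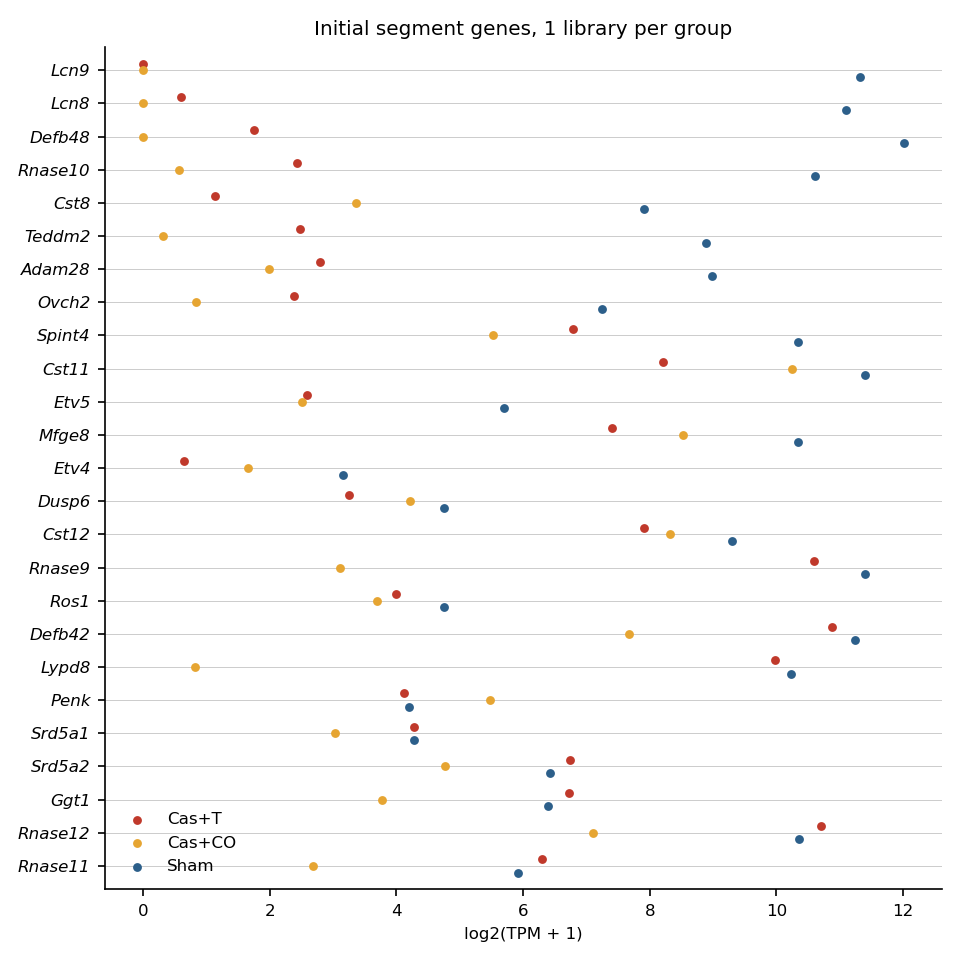
Log2(TPM + 1) of the 25 initial segment genes in Cas+T, Cas+CO and Sham, 1 point per library, sorted by the ratio of Cas+T over Sham. From Lcn9 down to Cst12 the Cas+T point lies at least 2-fold left of the Sham point, while from Defb42 downwards the Cas+T and Sham points lie side by side.

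A second set of initial segment genes lay close to the Sham level in Cas+T, although most of them were far lower in Cas+CO. Lypd8, a small membrane-anchored protein of the Ly6 fold, had 1005 TPM in Cas+T, 0.77 TPM in Cas+CO and 1199 TPM in Sham (-0.25). Rnase12 had 1659 TPM in Cas+T, 136 TPM in Cas+CO and 1312 TPM in Sham (0.34), and Ggt1, the enzyme that breaks down luminal glutathione, had 104 TPM in Cas+T, 12.7 TPM in Cas+CO and 82.7 TPM in Sham (0.33). The 5-alpha-reductases, which convert testosterone to the stronger androgen dihydrotestosterone, belonged here too. Srd5a1 had 18.3 TPM in Cas+T, 7.19 TPM in Cas+CO and 18.4 TPM in Sham (-0.01), and Srd5a2 had 105 TPM in Cas+T, 26.3 TPM in Cas+CO and 84.7 TPM in Sham (0.31). Genes known from the same stretch of duct were therefore measured at 0 and at the full Sham level in the same Cas+T library.

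The signalling genes that link testicular fluid to this segment divided in a similar way. Ros1 itself had 14.99 TPM in Cas+T, 11.9 TPM in Cas+CO and 25.9 TPM in Sham, a log2 ratio of -0.75 that passed the 2-fold limit only after scaling (-1.07). The transcription factors downstream of it were lower: Etv5 had 5.03 TPM in Cas+T, 4.68 TPM in Cas+CO and 51.2 TPM in Sham (-3.11), and Etv4 had 0.56 TPM in Cas+T, 2.14 TPM in Cas+CO and 7.90 TPM in Sham (-2.51). Dusp6, a phosphatase that ERK induces and that switches ERK off, had 8.52 TPM in Cas+T, 17.5 TPM in Cas+CO and 25.8 TPM in Sham (-1.49). For Etv4 and Dusp6 the Cas+T library was the lowest of the 3. Of the 23 compared members of the ERK and ROS1 list these 3 were at least 2-fold lower (5 after scaling), beside 2.75% (3.98%) of all genes. Higher members numbered 0, beside 5.17% of all genes, and the median was 0.00 (-0.31 after scaling). Other ERK feedback genes lay nearer to Sham: Spry2 had 7.86 TPM in Cas+T, 15.2 TPM in Cas+CO and 7.91 TPM in Sham, and Spry1, an inhibitor of receptor tyrosine kinase signalling, had 6.63 TPM in Cas+T, 16.8 TPM in Cas+CO and 11.1 TPM in Sham.

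Lcn and Teddm genes lie on either side of this divide as neighbours or relatives, and Ovch2 lies on its low side. Promoters of 6 of these genes are shown. Each is the 300 bases from 250 before to 50 after the RefSeq start (GRCm38.p6), 5′ to 3′ on the strand of the gene. Capitals mark the ETS factor word AGGAAG or the steroid hormone response half-site AGAACA, on either strand. They are Lcn8 (chr2:25652868-25653167, plus strand), Lcn9 (chr2:25822903-25823202, plus), Teddm1a (chr1:153891396-153891695, plus) and Ovch2 (chr7:107801130-107801429, minus), all under 3% of Sham in Cas+T, and Lcn5 (chr2:25657702-25658001, plus) and Teddm1b (chr1:153874095-153874394, plus), which were within 2-fold of Sham.
Lcn8: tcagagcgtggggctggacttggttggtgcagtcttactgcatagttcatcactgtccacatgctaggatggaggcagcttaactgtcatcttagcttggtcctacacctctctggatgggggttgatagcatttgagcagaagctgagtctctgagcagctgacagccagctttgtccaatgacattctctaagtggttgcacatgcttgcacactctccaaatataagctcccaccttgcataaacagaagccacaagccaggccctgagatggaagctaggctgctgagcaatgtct
Lcn9: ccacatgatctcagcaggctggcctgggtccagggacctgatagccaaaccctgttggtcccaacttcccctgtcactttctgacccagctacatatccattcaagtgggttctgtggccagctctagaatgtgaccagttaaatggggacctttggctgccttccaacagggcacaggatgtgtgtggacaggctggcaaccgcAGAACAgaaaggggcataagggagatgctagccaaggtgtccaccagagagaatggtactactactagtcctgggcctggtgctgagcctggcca
Teddm1a: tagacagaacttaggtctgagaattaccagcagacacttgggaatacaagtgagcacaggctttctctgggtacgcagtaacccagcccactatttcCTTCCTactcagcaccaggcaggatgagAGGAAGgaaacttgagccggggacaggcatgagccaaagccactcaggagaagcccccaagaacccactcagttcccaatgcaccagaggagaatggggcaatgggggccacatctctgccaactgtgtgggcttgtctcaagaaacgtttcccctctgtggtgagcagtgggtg
Ovch2: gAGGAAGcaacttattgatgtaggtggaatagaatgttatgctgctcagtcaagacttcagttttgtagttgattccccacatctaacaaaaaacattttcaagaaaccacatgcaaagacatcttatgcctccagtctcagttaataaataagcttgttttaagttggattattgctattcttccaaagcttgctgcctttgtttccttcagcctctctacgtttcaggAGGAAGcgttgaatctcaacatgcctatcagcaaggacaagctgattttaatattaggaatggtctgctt
Lcn5: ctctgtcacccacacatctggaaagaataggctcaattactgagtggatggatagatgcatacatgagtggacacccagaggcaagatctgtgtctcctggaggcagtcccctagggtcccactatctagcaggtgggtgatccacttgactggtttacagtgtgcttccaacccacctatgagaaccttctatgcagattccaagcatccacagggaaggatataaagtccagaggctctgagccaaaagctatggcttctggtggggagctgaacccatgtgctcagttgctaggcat
Teddm1b: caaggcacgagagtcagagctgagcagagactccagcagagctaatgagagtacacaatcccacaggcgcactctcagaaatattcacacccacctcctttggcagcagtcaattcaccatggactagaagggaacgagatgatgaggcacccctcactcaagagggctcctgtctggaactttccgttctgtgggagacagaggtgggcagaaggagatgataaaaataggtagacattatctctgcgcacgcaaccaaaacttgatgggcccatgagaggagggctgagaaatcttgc

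Teddm1a and Ovch2 held the ETS factor word AGGAAG at 2 places each and Lcn9 held 1 hormone response half-site. Lcn8, Lcn5 and Teddm1b held neither full word in this window. Shorter forms of the words were not counted, so these promoters may hold them. Of the 83 genes with 10 TPM or more in Sham whose level was down at least 2-fold in both castrated libraries, 62 had a promoter in the table, 78 promoters in all. AGGAAG was in 44.9% of them, against 35.4% of all 32851 promoters, and AGAACA in 35.9%, against 19%. For the 339 genes (435 promoters) down at least 2-fold in Cas+CO and within 2-fold of Sham in Cas+T, the shares were 36.8% and 19.3%. A match of these letters is a description and not a binding site, and no test was made of the shares.

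The 83 genes of this loss class (a description by rule, since both ratios use the same Sham library) held 0.711% of all TPM in Cas+T, 0.228% in Cas+CO and 4.04% in Sham. The median member stood at 9.83% of its Sham level in Cas+T, and 42 members were below 10%. As deposited, their levels in Cas+T were above those in Cas+CO for 57 members and below them for 18. By role, 27 belonged to the secretory or initial segment lists, 4 to sperm and germ cells, 33 were other genes with a symbol and 19 had predicted, RIKEN or mitochondrial names. The 2-fold limit runs through a continuous range: Defb22 (-1.01), Epp13 (-1.05) and Aldh1a7 (-1.06) lay just inside it, and Plekha3 (-0.96), Cd59a (-0.95) and Npy (-0.94) just outside.

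Within gene families the response differed between neighbours. Lcn5, a lipocalin that binds retinoic acid, starts 1.7 kb beyond the end of Lcn8 on chromosome 2 and had 4950 TPM in Cas+T, 11.5 TPM in Cas+CO and 7945 TPM in Sham, so it was at 62.3% of Sham where Lcn8 was at 0.0233%. Lcn12, also a lipocalin, was above Sham, with 492 TPM in Cas+T, 2.34 TPM in Cas+CO and 276 TPM in Sham (178% of Sham). Lcn10 (176 TPM in Cas+T, listed at 0 in Cas+CO, 621 TPM in Sham) and Ptgds, the lipocalin-type prostaglandin D synthase (1267 TPM in Cas+T, 28.8 TPM in Cas+CO, 3268 TPM in Sham), lay between these extremes. Of 8 lipocalins, 4 were at least 2-fold lower as deposited and 7 after scaling, beside 2.75% and 3.98% of all genes. Their medians were -1.12 and -1.46.

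The Teddm genes, which encode epididymal membrane proteins of unknown role, gave the same contrast between neighbours. Teddm1a (chromosome 1, 153891742 to 153893058) had 14.1 TPM in Cas+T, 0.12 TPM in Cas+CO and 1195 TPM in Sham (-6.31). Teddm1b, whose end lies 14.9 kb before it, had 469 TPM in Cas+T, was listed at 0 in Cas+CO and had 272 TPM in Sham (0.78), or 173% of Sham. Teddm2, at 4.57 TPM in Cas+T, 0.24 TPM in Cas+CO and 475 TPM in Sham, spans both on the opposite strand, and whether the counting used strand is not given, so its reads cannot be told apart from theirs. The metalloprotease genes Adam7 and Adam28, 72.3 kb apart on chromosome 14, differed likewise: Adam7, a sperm surface protein made in the caput, had 2825 TPM in Cas+T, 13.6 TPM in Cas+CO and 4633 TPM in Sham, 61.0% of Sham against 1.18% for Adam28.

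Of 34 beta-defensins compared, 12 were at least 2-fold lower in Cas+T and 2 higher (14 and 1 after scaling), beside 2.75% lower and 5.17% higher over all genes, with a median of -0.34. The lowest were Defb48, its chromosome 14 neighbour Defb47 (14.9 TPM in Cas+T, 1.83 TPM in Cas+CO, 1894 TPM in Sham, log2 ratio -6.90) and Defb25 on chromosome 2 (1.28 TPM in Cas+T, 3.16 TPM in Cas+CO, 790 TPM in Sham, -8.44). Defb43, which starts 10.6 kb beyond the end of Defb47, had 487 TPM in Cas+T, was listed at 0 in Cas+CO and had 397 TPM in Sham. Defb18, the most abundant defensin of Sham, had 5333 TPM in Cas+T, was listed at 0 in Cas+CO and had 5648 TPM in Sham, 94.4% of Sham. Members of the family in the same 2 libraries thus ranged from 0.0573% to 202% of Sham at 10 TPM or more in Sham. Defb30 and Defb42 overlap, so the division of reads between them is uncertain.

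**Figure D3:**
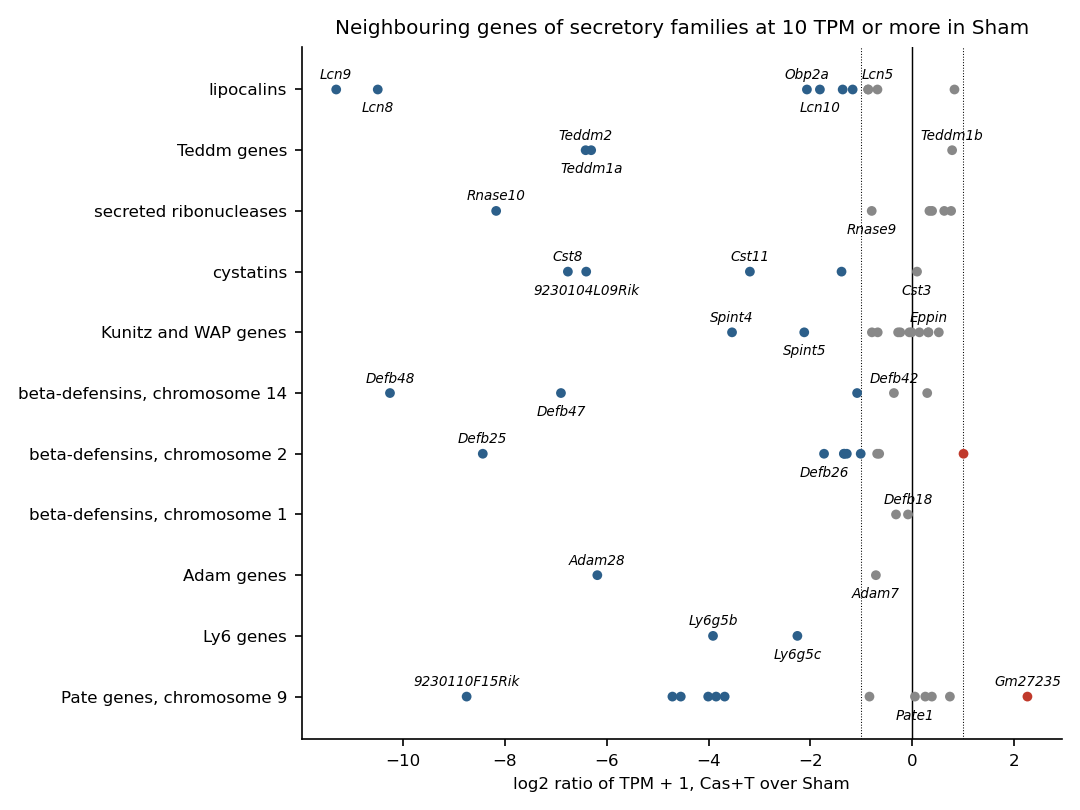
Log2 ratio of TPM + 1, Cas+T over Sham, for neighbouring genes of 11 groups at 10 TPM or more in Sham, 1 point per gene, with dotted lines at 2-fold (blue at least 2-fold lower, red higher, grey between). Rows hold both points near 0 and points far to the left, such as Lcn5 and Lcn8, or Adam7 and Adam28; Lcn9, Gm17677 and Gm3434 were listed at 0 in Cas+T, so their place is set by the added 1.

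In the cystatin cluster of chromosome 2, genes for inhibitors of cysteine proteases and their relatives, the epididymis of castrated mice given testosterone had lower deposited levels than that of castrated mice given oil. Cst11 had 296 TPM in Cas+T, 1214 TPM in Cas+CO and 2704 TPM in Sham (-3.19), and Cst8 had 1.20 TPM in Cas+T, 9.29 TPM in Cas+CO and 238 TPM in Sham (-6.77). Cst12 had 239 TPM in Cas+T, 317 TPM in Cas+CO and 628 TPM in Sham (-1.39), and here the order of the castrated libraries turned after scaling, with log2 ratios over Sham of -1.74 in Cas+T and -1.78 in Cas+CO. The unnamed gene 9230104L09Rik (ENSMUSG00000027446; chromosome 2, 148846711 to 148865038), which lies between Cst8 and Cst3 and was singled out after its values were seen, showed the widest gap, with 36.3 TPM in Cas+T, 2345 TPM in Cas+CO and 3164 TPM in Sham (-6.41). It was thus at 1.15% of Sham in Cas+T, and Cas+CO was within 2-fold of Sham as deposited (-0.43) but not after scaling (-1.23). How its reads were assigned cannot be checked from TPM. Cst3, the cystatin C of most tissues, was at the Sham level, with 771 TPM in Cas+T, 6254 TPM in Cas+CO and 722 TPM in Sham. Outside the cluster, Mfge8, a secreted lactadherin that binds sperm, also had its lowest level in Cas+T, with 168 TPM in Cas+T, 368 TPM in Cas+CO and 1299 TPM in Sham (-2.94).

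Genes around the Pate genes of chromosome 9, which encode small secreted proteins of the Ly6 fold, were looked at after values were seen, because several predicted genes of the loss class lie there. Pate1 had 199 TPM in Cas+T, 4.24 TPM in Cas+CO and 192 TPM in Sham, and Pate2 had 241 TPM in Cas+T, 2.26 TPM in Cas+CO and 202 TPM in Sham, both at the Sham level. Pate2 spans Pate1 and Pate4 on the opposite strand, so the division of reads among them is uncertain. The gene 9230110F15Rik (ENSMUSG00000047980; chromosome 9, 35838329 to 35844150) had 0.24 TPM in Cas+T, 0.15 TPM in Cas+CO and 535 TPM in Sham (-8.76), whereas 9230113P08Rik, farther along the same stretch, had 2705 TPM in Cas+T, 0.08 TPM in Cas+CO and 2069 TPM in Sham (0.39). Pate4, also made in seminal vesicle, had 20.2 TPM in Cas+T, was listed at 0 in Cas+CO and had 8.11 TPM in Sham. Pate4 was thus above Sham by 1.22 on the log2 scale, but by 0.89 after scaling. Gm17727 (15.1 TPM in Cas+T, listed at 0 in Cas+CO, 259 TPM in Sham) and Gm27235 (481 TPM in Cas+T, 55.5 TPM in Cas+CO, 99.3 TPM in Sham) overlap on the same strand, and Gm27235 also overlaps D730048I06Rik, so their values are uncertain.

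As deposited, 7 of 9 secreted ribonucleases and 25 of 30 protease inhibitors were within 2-fold of Sham, beside 92.1% of all genes. Of the ribonucleases, 1 was lower (Rnase10) and 1 higher (Ang), beside 2.75% lower and 5.17% higher over all genes. Ang, whose gene overlaps Rnase4, had 3.88 TPM in Cas+T, 9.49 TPM in Cas+CO and 1.07 TPM in Sham. After scaling 0 were higher, with Ang at 0.97, and 2 were lower, Rnase10 and Rnase9, beside 2.11% higher and 3.98% lower over all genes. Rnase9, 27.7 kb from Rnase10, had 1547 TPM in Cas+T, 7.66 TPM in Cas+CO and 2686 TPM in Sham (-0.80, or -1.14 after scaling). Of 30 Kazal, WAP and Kunitz inhibitors 4 were lower and 1 higher (7 and 1 after scaling), beside 2.75% lower and 5.17% higher over all genes. The lowest were Spint4, the Kazal-type inhibitor Spink14 (12.8 TPM in Cas+T, listed at 0 in Cas+CO, 135 TPM in Sham, -3.31) and Spint5, a neighbour of Spint4 (145 TPM in Cas+T, 66.8 TPM in Cas+CO, 633 TPM in Sham, -2.12). Eppin, an inhibitor that coats sperm, had 573 TPM in Cas+T, 17.5 TPM in Cas+CO and 460 TPM in Sham (0.32). The 6 clade A serpins compared were all within 2-fold under both scalings.

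Most of the sperm and testicular germ cell transcripts that could be compared were lower in Cas+T. Of 17 compared members 11 were at least 2-fold lower and 0 were higher, beside 2.75% lower and 5.17% higher over all genes. The median was -1.58, or -0.66 without the members listed at 0. The list holds 30 genes, and the others were under 1 TPM in both Cas+T and Sham. Most compared members were under 1 TPM in Cas+T, so they entered through their Sham level, which favours lower ratios. Prm2, a protamine that packs sperm DNA, was listed at 0 in Cas+T and in Cas+CO, against 18.3 TPM in Sham. Smcp, a protein of the sperm mitochondrial capsule, was listed at 0 in Cas+T and in Cas+CO, against 12.2 TPM in Sham. Odf1, of the sperm tail's outer dense fibres, had 0.12 TPM in Cas+T, was listed at 0 in Cas+CO and had 27.3 TPM in Sham. Their levels in Sham were low beside those of the secretory genes, and the whole list summed to 39.6 TPM in Cas+T, 59.9 TPM in Cas+CO and 133 TPM in Sham. Odf2, which is also expressed in other cells, made most of the Cas+T sum, with 25.1 TPM in Cas+T, 31.0 TPM in Cas+CO and 18.2 TPM in Sham (0.44). The part of germ cell RNA in the other differences was not tested.

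Several further genes of the loss class act outside the secretory families. Actg2, the gamma actin of smooth muscle, had 47.7 TPM in Cas+T, 32.7 TPM in Cas+CO and 465 TPM in Sham (-3.26). Azgp1, a secreted zinc-binding glycoprotein, had 0.92 TPM in Cas+T, 0.88 TPM in Cas+CO and 71.1 TPM in Sham (-5.23). Pla2g5, a secreted phospholipase A2, was listed at 0 in Cas+T, with 1.62 TPM in Cas+CO and 34.4 TPM in Sham. Membrane and lipid enzymes were among them. Elovl4, which lengthens very long chain fatty acids, had 0.48 TPM in Cas+T, 1.76 TPM in Cas+CO and 16.9 TPM in Sham (-3.60), and Abca4, a retinoid transporter, had 0.32 TPM in Cas+T, 2.98 TPM in Cas+CO and 21.2 TPM in Sham (-4.08). Mmp7, the matrix protease matrilysin, had 7.03 TPM in Cas+T, 0.80 TPM in Cas+CO and 66.3 TPM in Sham (-3.07). Klrb1c, a receptor of natural killer cells, had 3.27 TPM in Cas+T, 1.39 TPM in Cas+CO and 81.8 TPM in Sham (-4.28), while its list of T and natural killer cell markers had 3 members at 1 TPM or more in either library.

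Smooth muscle genes as a list stood below Sham. Of 16 members 15 were lower to some degree, 3 of them at least 2-fold (9 after scaling), beside 2.75% and 3.98% of all genes, with a median of -0.82 (-1.15 after scaling) and a sum of 718 TPM in Cas+T, 1266 TPM in Cas+CO and 1546 TPM in Sham. Cnn1, a calponin of contractile muscle, had 45.5 TPM in Cas+T, 95.1 TPM in Cas+CO and 108 TPM in Sham (-1.23), and Des, the intermediate filament desmin, had 17.0 TPM in Cas+T, 44.9 TPM in Cas+CO and 36.1 TPM in Sham (-1.04). Fat cell markers stood above Sham: 14 of 14 were higher to some degree and 7 at least 2-fold (4 after scaling), beside 5.17% and 2.11% of all genes, with a median of 1.06. Their sum was 340 TPM in Cas+T, 2953 TPM in Cas+CO and 193 TPM in Sham. Fabp4, the fatty acid carrier of fat cells, had 51.8 TPM in Cas+T, 703 TPM in Cas+CO and 18.4 TPM in Sham, and Adipoq, a hormone secreted by fat cells, had 4.23 TPM in Cas+T, 124 TPM in Cas+CO and 1.93 TPM in Sham. The part of tissue makeup in the ratios was not tested.

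The class of overshoot above Sham held fewer genes than the loss class, but their rules for Cas+CO differ, so the counts do not measure which was wider. Among all genes compared, 756 stood at least 2-fold above Sham and 402 below it as deposited (308 and 583 after scaling). The class of genes at 10 TPM or more in Cas+T, at least 2-fold above Sham, and at or below Sham in Cas+CO held 41 genes, of which 21 remained after scaling. Genes that met the rule only after scaling are not in either number, such as Atp1b1 (scaled log2 ratios over Sham of 1.02 in Cas+T and -0.30 in Cas+CO). The 41 genes summed to 2681 TPM in Cas+T, 489 TPM in Cas+CO and 927 TPM in Sham, and the median member stood at 257% of Sham. Defb45 (1.01), Tfe3 (1.03) and Cpsf4l (1.05) lay just inside the limit, and Tmem267 (0.999), Slc9a3r1 (0.99) and Il22ra2 (0.98) just outside.

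The widest differences of this class were those of the histone copy Hist2h2aa2, the noncoding 1700021A07Rik, the T cell receptor segment Trav9-2 and the pseudogene Klk1b14-ps. Next came Nckipsd. This gene, an adaptor of the actin cytoskeleton, had 62.8 TPM in Cas+T, 8.42 TPM in Cas+CO and 11.6 TPM in Sham (2.35, or 2.003 after scaling). S1pr3, a receptor for sphingosine-1-phosphate, had 10.6 TPM in Cas+T, 0.87 TPM in Cas+CO and 1.85 TPM in Sham (2.02), and Mlxipl, a transcription factor that responds to glucose, had 23.1 TPM in Cas+T, 6.23 TPM in Cas+CO and 6.91 TPM in Sham (1.61). For these 3 genes Cas+CO lay close to or below Sham, so the Cas+T library stood apart from both others. Ftcd, an enzyme of folate and histidine metabolism, had 15.4 TPM in Cas+T, 3.31 TPM in Cas+CO and 3.87 TPM in Sham (1.75), and Spock1, a matrix proteoglycan, had 31.7 TPM in Cas+T, 6.04 TPM in Cas+CO and 9.43 TPM in Sham (1.65).

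Other members were below Sham in Cas+CO and above it in Cas+T, and Klk1b27, Mfrp and Defb45 were under 1 TPM in Cas+CO. Klk1b27, a tissue kallikrein protease, had 26.8 TPM in Cas+T, 0.80 TPM in Cas+CO and 8.78 TPM in Sham (1.51, or 1.17 after scaling). Mfrp, a membrane protein related to frizzled receptors, had 43.4 TPM in Cas+T, 0.64 TPM in Cas+CO and 16.1 TPM in Sham (1.38), and Defb45 had 383 TPM in Cas+T, was listed at 0 in Cas+CO and had 190 TPM in Sham (1.01, or 0.66 after scaling). Ccnd2, the cyclin D2 that starts the cell cycle, had 42.0 TPM in Cas+T, 8.58 TPM in Cas+CO and 18.8 TPM in Sham (1.12, or 0.78 after scaling), and Greb1, a cofactor induced by steroid hormones, had 25.0 TPM in Cas+T, 8.04 TPM in Cas+CO and 11.5 TPM in Sham (1.06, or 0.73 after scaling). Of 32 cell cycle genes 31 were above Sham to some degree, with a median of 0.47 beside 0.30 over all genes. At least 2-fold higher were 3 of them as deposited and 0 after scaling, beside 5.17% and 2.11% of all genes.

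Hist2h2aa2, a replication histone gene, had 127 TPM in Cas+T and was listed at 0 in Cas+CO and Sham. Its near-identical neighbour Hist2h2aa1 had 41.5 TPM in Cas+T, 63.5 TPM in Cas+CO and 104 TPM in Sham, so the split of shared reads between the copies may set both values and neither is taken as a difference here. In the lower direction the same holds for Hba-a2, an alpha globin with a near-identical copy (Hba-a1), which was listed at 0 in Cas+T, with 514 TPM in Cas+CO and 10.7 TPM in Sham.

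**Figure D4:**
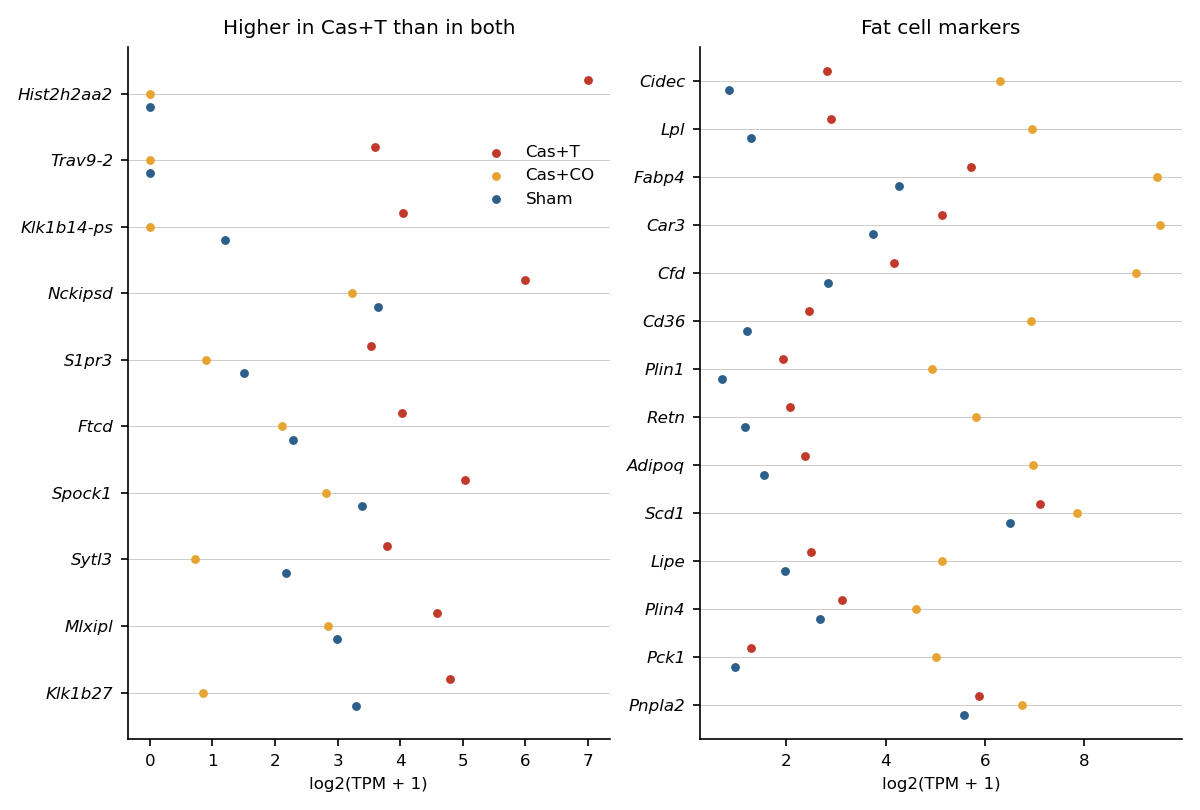
Log2(TPM + 1) in Cas+T, Cas+CO and Sham, 1 point per library, for the 10 genes with a gene symbol farthest above Sham in the overshoot class (left) and for the 14 fat cell markers compared (right). In the left panel Cas+T is the highest point of each row, whereas in the right panel Cas+CO is the highest and Cas+T lies between it and Sham.

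A smaller group of 27 genes at 10 TPM or more in Sham was at least 2-fold below Sham in Cas+T and at or above Sham in Cas+CO, and 11 of them remained after scaling. Genes that met this rule only after scaling are not in either number, such as the water channel Aqp1 (scaled log2 ratios over Sham of -1.12 in Cas+T and 1.25 in Cas+CO). Cldn10, a tight junction claudin that forms ion-selective pores, had 3.09 TPM in Cas+T, 118 TPM in Cas+CO and 17.9 TPM in Sham (-2.21). Tspan8, a tetraspanin of epithelia, had 3.17 TPM in Cas+T, 54.8 TPM in Cas+CO and 14.97 TPM in Sham (-1.94), and Cd34, a surface protein of vessel and stromal progenitor cells, had 7.06 TPM in Cas+T, 54.7 TPM in Cas+CO and 35.8 TPM in Sham (-2.19). Defb29 was the only beta-defensin in this group, with 89.8 TPM in Cas+T, 429 TPM in Cas+CO and 220 TPM in Sham (-1.29). As deposited, the castrated libraries lay on either side of Sham in these genes, whereas after scaling Cas+CO was below Sham for Cd34 (-0.18) and above it for the others named.

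A further kind of difference was shared by both castrated libraries in the upward direction. Iapp, the peptide amylin, had 122.7 TPM in Cas+T, 570 TPM in Cas+CO and 8.73 TPM in Sham (3.67). Ece1, the enzyme that activates endothelins, had 82.8 TPM in Cas+T, 25.5 TPM in Cas+CO and 6.45 TPM in Sham (3.49), and Chd9, a chromatin remodeller, had 3085 TPM in Cas+T, 1719 TPM in Cas+CO and 801 TPM in Sham (1.94). For Ece1 and Chd9 the Cas+T level was the highest of the 3, whereas for Iapp it lay between Cas+CO and Sham. Akr1c18, an enzyme that inactivates progesterone, had 5.01 TPM in Cas+T, 23.2 TPM in Cas+CO and 0.09 TPM in Sham (2.46), the only steroid receptor or enzyme gene of 19 at least 2-fold apart. Over all genes 5.17% were higher and 2.75% lower by that much.

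The list of androgen targets from other tissues stood no nearer to Sham than all genes did. Of 21 genes known as androgen targets in other tissues, 19 were within 2-fold, a share near the 92.1% of all genes, with a median of 0.31 beside 0.30 over all genes. The 2 lower ones were Slc45a3, a prostate transporter (0.66 TPM in Cas+T, 2 TPM in Cas+CO, 9.40 TPM in Sham), and Abcc4, an exporter of organic anions (1.75 TPM in Cas+T, 4.04 TPM in Cas+CO, 8.57 TPM in Sham), both lowest in Cas+T. Of 22 water and ion transport genes 2 were higher and 1 lower (1 and 3 after scaling), beside 5.17% and 2.75% of all genes. Atp1b1, a subunit of the sodium pump, had 406 TPM in Cas+T, 221 TPM in Cas+CO and 157 TPM in Sham (1.37), and Car14, a carbonic anhydrase, had 2.01 TPM in Cas+T, 0.91 TPM in Cas+CO and 5.06 TPM in Sham (-1.01). In the clear cell list, Foxi1, the transcription factor of these acid-secreting cells, had 60.4 TPM in Cas+T, 107 TPM in Cas+CO and 27.5 TPM in Sham (1.11, or 0.76 after scaling). Foxi1 was the only gene of the 12 compared in that list at least 2-fold higher, and 0 were after scaling, beside 5.17% and 2.11% of all genes. All 12 were above Sham to some degree, with a median of 0.59 beside 0.30 over all genes. Cellular machinery lay close to Sham, with 85 of 85 ribosomal protein genes, 28 of 28 folding genes of the endoplasmic reticulum and 23 of 23 cholesterol synthesis genes within 2-fold under both scalings.

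**Figure D5:**
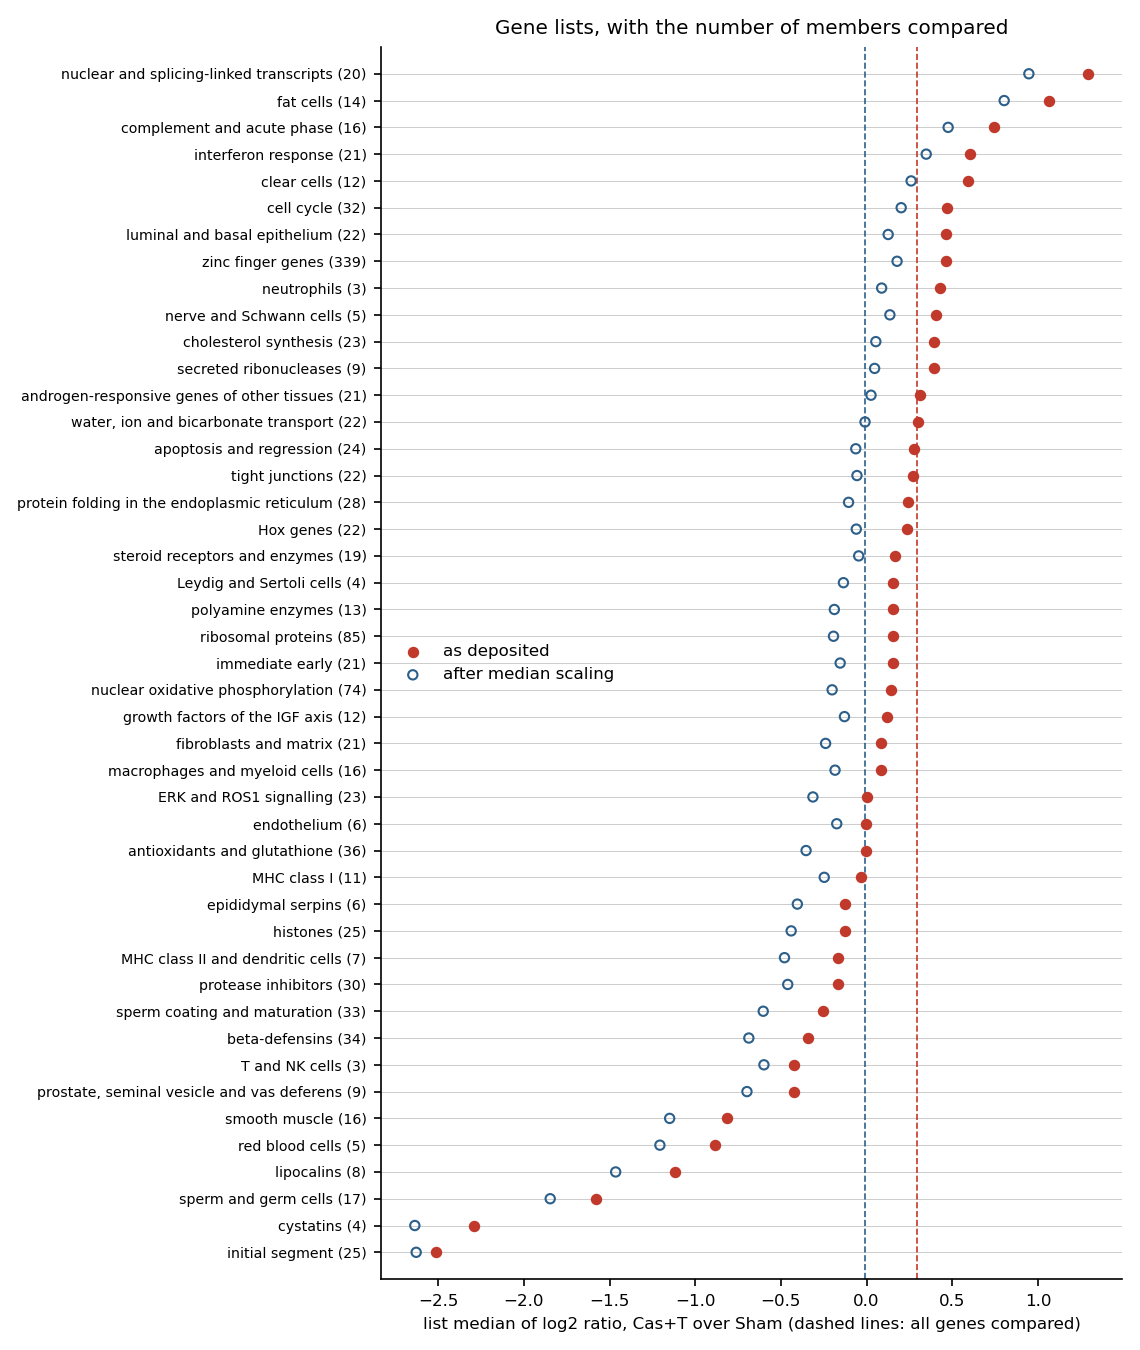
Median log2 ratio of Cas+T over Sham for each gene list with at least 3 members compared (number in brackets), as deposited and after median scaling, with dashed lines at the median of all genes. Initial segment (-2.51), cystatin (-2.29), sperm and germ cell (-1.58) and lipocalin (-1.12) lists lie farthest left, fat cell markers (1.06) lie right, and the list of nuclear transcripts at the top was chosen after its values were seen.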

How the data were processed

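Epididymis RNA was sequenced as 1 library per group after column extraction and standard Illumina library preparation, per the labels' protocols. The authors deposited 1 log2 value per gene and library. No label or header names the unit: 2 raised to the value, minus 1, gave steps of 0.01 for 100% of values under 1000 and totals of 1000000, so the deposited values were read as log2(TPM + 1). Not given in the sources used here were the aligner, the counter, strandedness and the genome build. TPM keeps no depth or counting error, loss of abundant transcripts raises all other genes, and a 0 may be a failed estimate, so no fold was given against it.

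Of 23538 identifiers, 23518 matched the GENCODE M21 annotation (GRCm38), which gave all gene coordinates, and 20 did not. Values of 19 symbols with several entries were summed. Ratios used a pseudocount of 1 TPM and genes at 1 TPM or more in Cas+T or Sham, with a limit of 2-fold, as deposited and after median scaling. Promoters are from RefSeq (GRCm38.p6). No test exists with 1 library per group. The code was tested on simulated data. 1 gene the text would have named is not reported here.

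The comparison and the 45 gene lists were chosen with earlier results of these data known, and 1 further list after its values were seen. Genes were named by rule: the 15 largest differences each way at 10 TPM or more (predicted, RIKEN and mitochondrial names left out), up to 4 per list, all initial segment and ERK genes, the 10 largest of each class and the 10 most abundant of each library. Chosen for naming only once values had been seen were the members next to the limits, 9230104L09Rik and the genes around Pate1, the neighbours Lcn5, Lcn12, Teddm1b, Adam7, Ang, Defb18, Defb29, Defb30, Defb43, Defb45 and Eppin, and Abca4, Abcc4, Adipoq, Akr1c18, Car14, Odf2, 1700021A07Rik, Ccnd2, Chd9, Clk4, Elovl4, Greb1, Mfrp and Slc45a3. Alternatives were other pseudocounts, minimums, scalings, limits, gene sets and handling of repeated symbols. The scripts ran under pandas 2.3.3, NumPy 2.4.6, Python 3.11.15 and matplotlib 3.10.9.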

Additional observations from a re-analysis of the deposited data

How the results depend on the processing

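No paired analysis was possible because each group has 1 library. No named gene or list median at or past the 2-fold limit changed direction under the alternatives, but ratios near 0 could: Rnase12 (0.34) and Eppin (0.32) came to -0.01 and -0.03 after median scaling. The number of genes at least 2-fold higher in Cas+T, 756 as deposited, was 1414 with a pseudocount of 0.1, 326 with a minimum of 10 TPM, 308 after median scaling, 451 after scaling without the 50 most abundant genes (where 48.4% of the genes apart were higher) and 67 at a 4-fold limit. The number lower, 402, was 631 with a pseudocount of 0.1, 140 with a minimum of 10 TPM and 106 at a 4-fold limit. The loss class of 83 genes held 166 after median scaling, 48 at 4-fold and 232 with a minimum of 1 TPM. The overshoot classes of 41 and 27 genes held 8 and 8 at 4-fold, and 128 and 83 with a minimum of 1 TPM.

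The sperm and germ cell median of -1.58 was -4.315 with a pseudocount of 0.1, -0.695 with no minimum, -3.718 with a minimum of 10 TPM and -0.659 without genes listed at 0. With no minimum, the cystatin median of -2.29 was -0.355 and the fat cell median of 1.06 was 0.558, since members near 0 in both libraries then entered. Of the genes named by rule, 11 dropped under the 2-fold limit after median scaling (C3, Cfd, Cox7b, Foxi1, Hoxd3, Hoxd4, Lyz2, Pate4, Slc26a3, Sms and Zfp969) and 15 passed it, Ros1 and Rnase9 among them. The depth behind TPM is unknown, so the counting error of low genes such as Etv4 and Lcn8 in Cas+T could not be given.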

Other observations

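Transcripts kept in the nucleus and genes of splicing regulators were high in both castrated libraries. This list of 20 genes was chosen after its values were seen, so its counts describe it and carry no weight: 15 stood 2-fold or more above Sham in Cas+T (10 after median scaling), all 20 were above Sham, and the median log2 ratio was 1.29 (0.95 after scaling). Malat1, a long noncoding RNA of nuclear speckles, had 132 TPM in Cas+T, 224 TPM in Cas+CO and 37.7 TPM in Sham. Pnisr, a speckle protein gene, had 91.9 TPM in Cas+T, 180 TPM in Cas+CO and 26.3 TPM in Sham. Clk4, a kinase of splicing factors, had 76.2 TPM in Cas+T, 98.2 TPM in Cas+CO and 25.7 TPM in Sham, and Ogt, which attaches sugar to nuclear proteins, had 80.7 TPM in Cas+T, 185 TPM in Cas+CO and 25.8 TPM in Sham. For these 4 genes Cas+T lay between Cas+CO and Sham. Whether the share of nuclear RNA differed between the extracts was not tested.

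Over all genes, 5.17% stood at least 2-fold above Sham in Cas+T and 2.75% below it (2.11% and 3.98% after scaling), and the zinc finger family was near that share of higher genes. Of 339 C2H2 zinc finger genes compared, 21 stood at least 2-fold above Sham in Cas+T and 1 below it (8 and 1 after scaling), with a median of 0.46, beside 0.30 over all genes. Complement and acute phase genes had 4 of 16 at least 2-fold higher and 0 lower (2 and 1 after scaling), and interferon response genes 3 of 21 higher and 0 lower (2 and 0 after scaling). Lyz2, the lysozyme of phagocytes, had 84.5 TPM in Cas+T, 496 TPM in Cas+CO and 34.1 TPM in Sham (1.29, or 0.94 after scaling). It stood apart from its list. Among 16 macrophage and myeloid genes compared, 1 was at least 2-fold higher and 0 lower (0 and 1 after scaling), with a median of 0.08. Pdgfra, a growth factor receptor of fibroblasts, had 3.07 TPM in Cas+T, 11.04 TPM in Cas+CO and 18.9 TPM in Sham (-2.29). Among 21 fibroblast and matrix genes, 1 was higher and 1 lower by that limit under both scalings. In that list 12 were above Sham to some degree, with a median of 0.08.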
